A study of Mus musculus with 7 samples.

Results

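The 37 genes described here encode matrix proteases and their inhibitors, listed by name: 18 matrix metalloproteinases (MMPs), 4 tissue inhibitors of metalloproteinases (TIMPs), 3 genes of the plasminogen activator system, 2 serpins, 5 ADAM and 5 ADAMTS proteases. They are 37 of the 55423 genes in the deposited counts, and 36 of them were among the 24433 genes tested. Mmp7, the matrilysin gene, had 0 counts in all 6 tumours and was not tested, which allows a level of up to 0.0839 to 0.143 CPM, which are counts scaled to the library total, depending on the tumour. Mmp27 passed the filter on low counts through the Ivl:BRAFV600E-SOX2LSL tumours alone.

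Bulk RNA, depleted of ribosomal RNA, was sequenced from cutaneous squamous cell carcinomas of 2 mouse genotypes. Ivl:BRAFV600E mice carry a tamoxifen-inducible Cre recombinase driven by the involucrin (Ivl) promoter and 1 inducible BRAFV600E allele, so that the oncogene is switched on in involucrin-expressing epidermal cells. Ivl:BRAFV600E-SOX2LSL mice carry the same Cre and BRAFV600E alleles together with a Rosa26 allele that yields SOX2 and eGFP once its stop cassette is removed by Cre. All mice received topical tamoxifen, at 7 to 10 weeks of age according to the labels, and tumours were taken at clinical endpoint. The study's mouse list tied 6 of the 7 deposited libraries to a genotype, 3 of each, and gave Ivl:BRAFV600E tumours A and B a tdRFP reporter allele as well. The groups held 1 male of 3 and 2 males of 3 mice, respectively. Every Ivl:BRAFV600E-SOX2LSL tumour was collected sooner after induction than every Ivl:BRAFV600E tumour, so time since induction and genotype cannot be told apart.

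Libraries held 23565432 to 31152826 counts on genes. Sox2 measured 0.238 to 0.716 CPM in Ivl:BRAFV600E tumours and 155 to 182 CPM in Ivl:BRAFV600E-SOX2LSL tumours (log2 fold change 8.35, SE 0.34, edgeR adjusted p = 0.000807). The keratinocyte markers Krt5 and Trp63 were present in all 6 tumours, with overlapping levels of 2371 to 3900.1 CPM and 261 to 321 CPM. Of the other keratinocyte markers listed, the levels of Krt1, Krt10 and Perp were lower with SOX2 and that of Dsg3 was higher, each without overlap.

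MMPs are zinc-dependent proteases, secreted or bound to the cell surface, that cleave collagens, gelatins, proteoglycans and many signalling proteins. They are made as inactive precursors, and TIMPs block the active enzymes. The plasminogen activators convert plasminogen to plasmin, a serine protease that degrades fibrin and can activate several pro-MMPs, and serpins such as Serpine2 and Serpinb2 restrain them. ADAM proteases shed the outer parts of membrane proteins, and ADAMTS proteases process procollagens and cleave proteoglycans. In skin, many of these genes are switched on in wound edges, in inflamed stroma and in carcinomas, by keratinocytes, fibroblasts and leukocytes alike.

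Across the 36 tested genes, levels mostly stood higher in the tumours with SOX2. Plau, Mmp28 and Timp1 rose, and no gene fell by the edgeR quasi-likelihood test at an adjusted p of 0.05. The background was 3.9% of all tested genes called, 2.39% higher and 1.51% lower. At an unadjusted p below 0.05, 18 of the 36 genes passed, beside 6280 of 24433 tested genes (25.7%). The levels of 16 genes (44.4%) did not overlap between the groups and were higher in every Ivl:BRAFV600E-SOX2LSL tumour, beside 18.2% of all tested genes. None of the 36 was lower without overlap, beside 16.0% of all tested genes, and 20 overlapped. The log2 fold change was above 0 for 32 genes and below 0 for Mmp1a, Timp3, Serpinb2 and Adamts1. Its median was 1.29 over the listed genes and 0.04 over all tested genes. The p-values measure the spread between these tumours, each from a different mouse.

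The number of listed genes called higher differed between fits. Without Ivl:BRAFV600E tumour A it was 0 (all tested genes, 0.0501%), without Ivl:BRAFV600E tumour B it was 0 (0.136%), and without Ivl:BRAFV600E tumour C it was 2 (0.515%). It was 5 without Ivl:BRAFV600E-SOX2LSL tumour A (3.59%), 0 without tumour B of that group (0.574%) and 2 without tumour C (1.24%). DESeq2 called 15 listed genes higher (10.5%), limma voom 8 (4.8%), edgeR without a filter on low counts 10 (3.25%) and edgeR with filterByExpr 5 (4.18%). The count was 3 with DESeq2 size factors (2.24%), with upper-quartile scaling (2.08%) and without the 10 genes with the most counts (2.4%), and 2 with sex as a covariate (0.659%). The listed genes are few and were chosen with earlier results of these data known. These counts are given as a description and not as a test of the list.

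**Figure D1:**
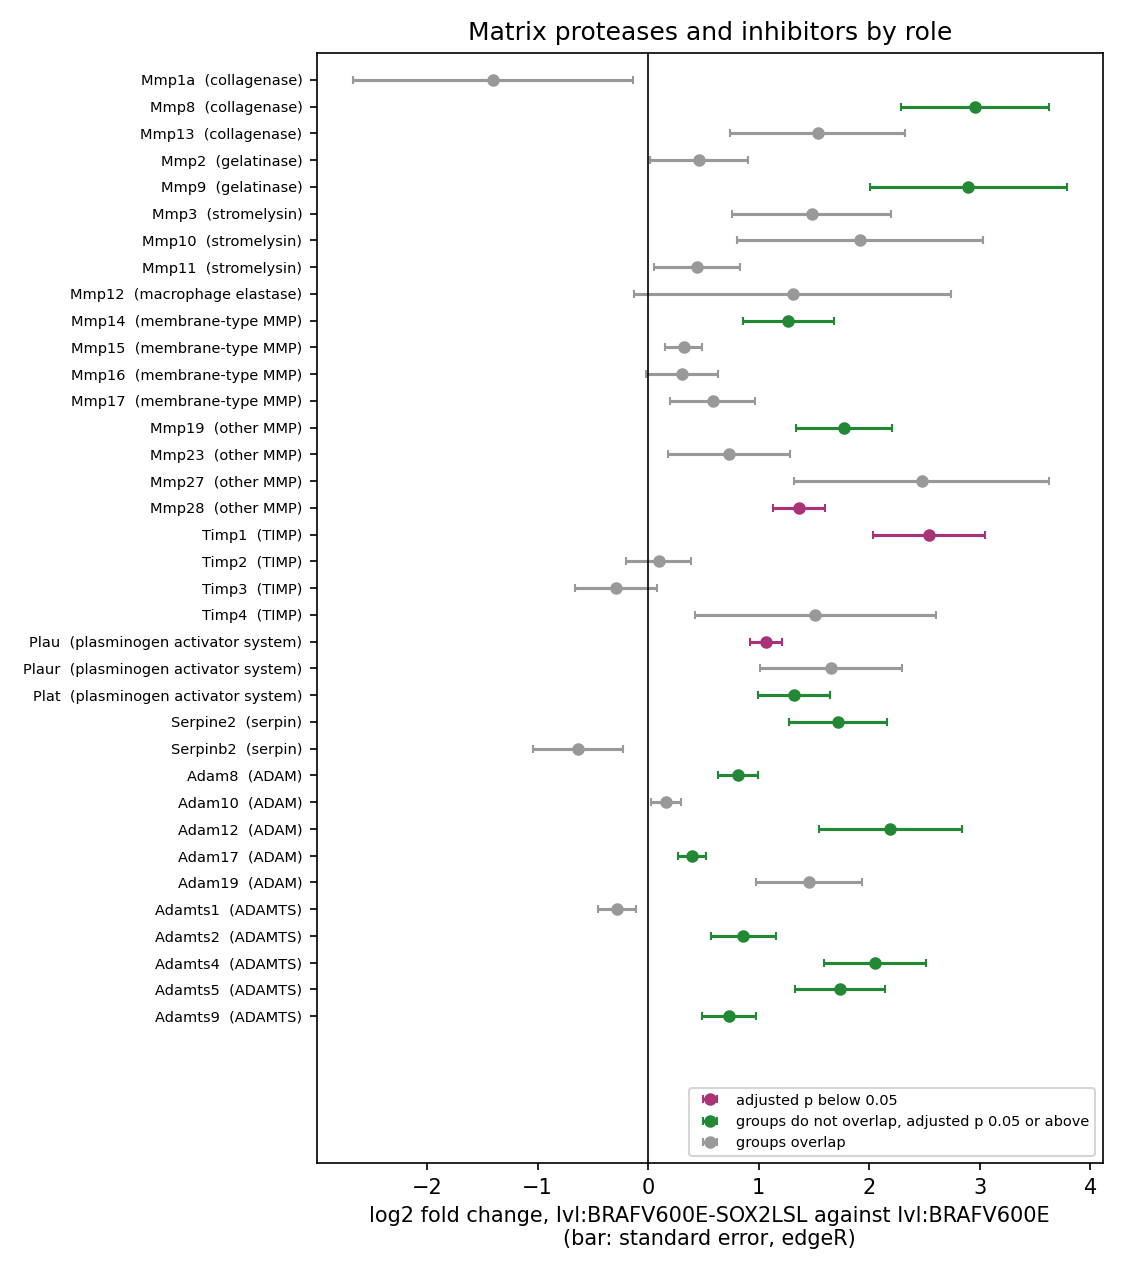
The log2 fold change of each of the 36 tested genes (horizontal axis, Ivl:BRAFV600E-SOX2LSL against Ivl:BRAFV600E) is plotted by gene with its role in brackets, with the edgeR standard error as a bar and the colour giving the test and the overlap of the groups. Most points lie right of 0, between -1.40 for Mmp1a and 2.96 for Mmp8, and the 3 genes past the test are Plau, Mmp28 and Timp1.

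These are bulk tumours, so fewer cells of a type and less RNA per cell cannot be told apart. Several marker lists moved with the protease genes. The summed level of 8 macrophage and monocyte markers ranged from 74.2 to 167 CPM in Ivl:BRAFV600E tumours and from 184 to 666 CPM in Ivl:BRAFV600E-SOX2LSL tumours, and 7 of the 8 did not overlap, with Csf1r past the test. Of 5 mast cell markers, 4 were higher without overlap, with sums of 6.61 to 14.2 and 31.9 to 35.4 CPM. Of 8 neutrophil markers, Ltf passed the test, Csf3r and Cxcr2 were also higher without overlap, S100a8, S100a9, Ngp and Retnlg overlapped, and the granule gene Camp, with at most 4 counts in a tumour, was not tested. Neutrophil marker sums were 333 to 1211 and 1459 to 2126 CPM, and without Ltf they overlapped, at 333 to 1209 and 387 to 1957 CPM. Skeletal muscle markers summed to 2.03 to 5.27 and 224 to 1060 CPM, and 7 of 8 were called higher. With a tumour left out, each of these 7 calls held in 2 to 4 of 6 fits. Of these 7, Tnnt3, Myl1 and Mb had at most 2 counts in each Ivl:BRAFV600E tumour and passed the filter on low counts through the tumours with SOX2 alone. Fibroblast marker sums overlapped, at 761 to 5090 and 3953 to 8293 CPM. Of the 8 fibroblast markers Pdgfra was higher without overlap, 7 overlapped and none passed the test. Keratinocyte marker sums did not overlap, at 89685 to 137809 and 14999 to 53937 CPM, and none of the 8 markers passed the test. Krt1, Krt10 and Perp were lower without overlap, Dsg3 was higher without overlap, and the other 4 overlapped. Without the suprabasal keratins Krt1 and Krt10 the keratinocyte sums overlapped, at 28621 to 56052 and 13564 to 38069 CPM. Sums overlapped for endothelial (123 to 130 and 118 to 145 CPM), smooth muscle and myofibroblast (146 to 206 and 139 to 242 CPM), osteoclast (45.2 to 55.9 and 47.8 to 72.5 CPM) and Schwann cell markers (39.96 to 48.5 and 38.7 to 58.6 CPM). Adipocyte (16.7 to 43.7 and 10.9 to 58.1 CPM), melanocyte (0.878 to 3.18 and 2.85 to 4.51 CPM) and lymphocyte marker sums (2.36 to 5.23 and 3.69 to 7.19 CPM) overlapped as well. Of these lists, Schwann cell markers had no gene that was higher without overlap and the others had 1 each, among which the osteoclast marker Ocstamp passed the test. Ocstamp, the lymphocyte marker Nkg7 and the adipocyte marker Cidec passed the filter on low counts through the tumours with SOX2 alone. Ocstamp had 3, 2 and 3 counts against 36, 20 and 18. The Csf1r and Ocstamp calls each held in 1 of the 6 fits with a tumour left out, and the Ltf call in 4. The endothelial marker Kdr and the mural cell marker Rgs5, of the smooth muscle list, were lower without overlap (edgeR adjusted p = 0.0976 and 0.125). The part of these cell types in the protease results was not tested.

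Most of the listed genes of the chromosome 9 MMP cluster and a few other genes share a short sequence close to their start. The AP-1 motif TGANTCA, the recognition sequence of FOS and JUN dimers, was searched on both strands in RefSeq promoters (GRCm38.p6, 250 bases before to 50 after each start). It occurred in 7.81% of 32817 promoters and in 10 of the 33 promoters found for 27 of the 37 genes. The genes with a match were Mmp1a, Mmp3, Mmp7, Mmp10, Mmp12, Mmp13, Plaur, Serpinb2 and Adam19. Of these 9 genes, 6 lie in the chromosome 9 cluster, and the other 2 listed cluster genes, Mmp8 and Mmp27, had no match in their windows. The 100 bases before the start follow for 8 of them, so that the matches can be seen in place, with the motif in capitals.
Mmp13, chr9:7272414-7272513, plus strand: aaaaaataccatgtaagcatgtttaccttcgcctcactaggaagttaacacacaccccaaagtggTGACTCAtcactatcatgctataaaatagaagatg
Mmp12, chr9:7347274-7347373, plus strand: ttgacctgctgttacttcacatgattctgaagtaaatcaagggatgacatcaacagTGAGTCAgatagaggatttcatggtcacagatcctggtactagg
Mmp3, chr9:7445722-7445821, plus strand: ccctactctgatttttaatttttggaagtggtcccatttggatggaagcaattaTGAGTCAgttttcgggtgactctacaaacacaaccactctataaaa
Mmp1a, chr9:7464041-7464140, plus strand: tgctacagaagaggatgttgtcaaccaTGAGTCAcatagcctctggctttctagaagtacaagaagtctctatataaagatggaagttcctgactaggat
Mmp10, chr9:7502242-7502341, plus strand: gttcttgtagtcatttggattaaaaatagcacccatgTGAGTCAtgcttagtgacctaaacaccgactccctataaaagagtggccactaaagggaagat
Mmp7, chr9:7691990-7692089, plus strand: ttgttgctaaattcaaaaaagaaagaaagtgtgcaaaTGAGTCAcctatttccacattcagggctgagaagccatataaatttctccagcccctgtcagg
Plaur, chr7:24462383-24462482, plus strand: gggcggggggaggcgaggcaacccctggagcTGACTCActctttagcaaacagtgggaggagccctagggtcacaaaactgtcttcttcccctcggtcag
Serpinb2, chr1:107511323-107511422, plus strand: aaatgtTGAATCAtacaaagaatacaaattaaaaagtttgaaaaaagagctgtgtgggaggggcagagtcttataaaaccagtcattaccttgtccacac

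The motif lay 35 bases before the start in Mmp13, 46 in Mmp3, 63 in both Mmp10 and Mmp7, and 73 in Mmp1a, counted to its first base. The Mmp12 match stood before a RefSeq start inside the GENCODE gene, and Serpinb2 had a second RefSeq start whose window holds the same match. For comparison, these are the 100 bases before the start of the TIMP and the MMP gene that passed the test, neither of which holds the motif in its window.
Timp1, chrX:20870066-20870165, plus strand: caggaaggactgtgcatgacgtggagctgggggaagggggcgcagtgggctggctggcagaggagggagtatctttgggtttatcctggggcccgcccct
Mmp28, chr11:83463041-83463140, minus strand: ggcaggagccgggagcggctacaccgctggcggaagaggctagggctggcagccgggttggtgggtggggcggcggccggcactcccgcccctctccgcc
Of the 9 genes with the motif none passed the edgeR test, Mmp7 had 0 counts, and the groups overlapped for the other 8. The core ACAANG that SOX factors bind occurred in 17 of the 33 promoters and in 41.3% of all promoters. The STAT motif TTCNNNGAA occurred in 4 (all promoters, 8.29%). Counted by gene, these are 2 of the 27 genes, Mmp23 and Serpinb2 (all genes with promoters, 9.55%). The NF-kB motif, GGG and CC set 5 bases apart, occurred in 19 (all promoters, 50.8%). A match is a description of these letters and not evidence of binding.

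Among the MMPs, Mmp28 was the gene that passed the test. Mmp28 encodes epilysin, an MMP that keratinocytes make. It measured 7.67, 9.19 and 6.60 CPM in Ivl:BRAFV600E tumours A, B and C and 24.1, 21.7 and 14.6 CPM in Ivl:BRAFV600E-SOX2LSL tumours A, B and C. The lowest tumour with SOX2 stood above the highest without it, and the group means differed 2.58-fold (log2 fold change 1.36, SE 0.24, edgeR adjusted p = 0.0319). The call held in 2 of the 6 fits with a tumour left out and was lost with sex as a covariate (log2 fold change 1.29, adjusted p = 0.0974). With a tumour left out the log2 fold change stayed between 1.21 and 1.55. Of the 3874 exonic bases of Mmp28 (chr11:83440768-83463071), 466 overlap exons of 1700020L24Rik on the other strand. That gene was called higher too, from 0.580 to 0.970 CPM up to 2.52 to 3.68 CPM (edgeR adjusted p = 0.0291). No source used here says if the counting took strand into account, which leaves reads in the overlap uncertain. The same holds for the other listed genes that share exonic bases with a gene on the other strand, among them Mmp12, Adam8, Adam17, Adam19, Adamts4 and Adamts9. Serpinb2 shares 291 exonic bases with Serpinb10 on its own strand, where counting by strand would not settle the reads.

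Mmp19, an MMP of basement membrane and matrix substrates, measured 3.55, 3.60 and 10.3 CPM in Ivl:BRAFV600E tumours A, B and C and 23.4, 19.2 and 16.7 CPM in the tumours with SOX2. Ivl:BRAFV600E tumour C was the highest of its group, and the groups did not overlap (log2 fold change 1.77, SE 0.44, edgeR adjusted p = 0.0673). Without that tumour the log2 fold change was 2.47 and the adjusted p 0.0315. Exons of Mmp19 overlap those of Gm47093 and Tmem198b on the other strand. Tmem198b, which shares 789 of the 3533 exonic bases, was also higher without overlap, at 1.71 to 2.42 CPM against 3.01 to 4.15 CPM (edgeR adjusted p = 0.129).

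The gelatinases, which cleave denatured collagen and type IV collagen of basement membranes, differed in pattern. Mmp9, which neutrophils, macrophages and keratinocytes can release, measured 8.53, 28.3 and 13.4 CPM without SOX2 and 287, 29.2 and 57.6 CPM with it. The groups did not overlap, but Ivl:BRAFV600E-SOX2LSL tumour B stood only just above Ivl:BRAFV600E tumour B, and the high mean came from tumour A (log2 fold change 2.90, SE 0.89, edgeR adjusted p = 0.106). Without that tumour the log2 fold change was 1.38, and without Ivl:BRAFV600E tumour B it was 3.51. Mmp2, the gelatinase of fibroblasts, measured 68.7, 50.9 and 181 CPM without SOX2 and 129, 157 and 128 CPM with it. Ivl:BRAFV600E tumour C stood above every other tumour, and the groups overlapped (log2 fold change 0.46, SE 0.44, edgeR adjusted p = 0.543). Without that tumour the log2 fold change was 1.21 (adjusted p = 0.0626).

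Mmp14, the membrane-type MMP that activates pro-MMP2 at the cell surface, measured 61.4, 63.6 and 102 CPM without SOX2 and 305, 109 and 133 CPM with it. All 3 tumours with SOX2 were above the others, tumour A by the widest margin (log2 fold change 1.27, SE 0.41, edgeR adjusted p = 0.118), and without tumour A the log2 fold change was 0.67. The other membrane-type genes Mmp15, Mmp16 and Mmp17 overlapped between the groups, with log2 fold changes of 0.31 to 0.58. Mmp15 stood at 12.1 to 17.8 CPM, and Mmp16 and Mmp17 stayed below 2 CPM in every tumour.

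**Figure D2:**
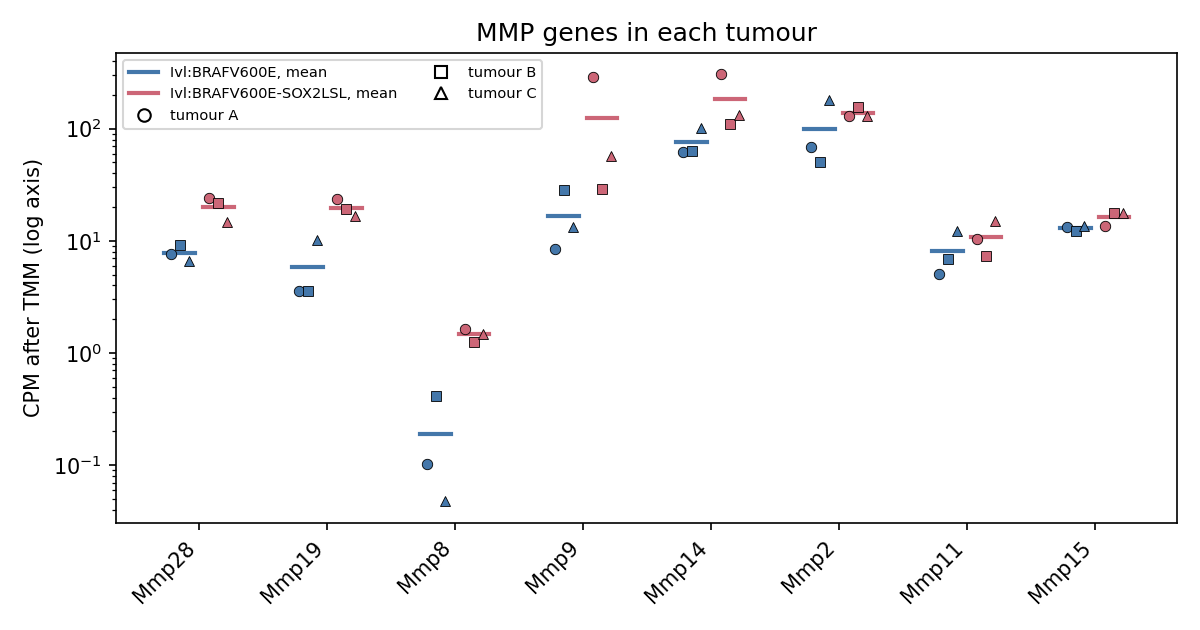
CPM after TMM scaling (log axis) is shown for 8 MMP genes, 7 of which lie outside the chromosome 9 cluster, in each tumour, with points for tumours A, B and C and a line for the group mean. Mmp28, Mmp19, Mmp8, Mmp9 and Mmp14 separate by genotype, whereas Mmp2, Mmp11 and Mmp15 overlap.

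Of the remaining MMPs outside the cluster, Mmp11, a stromelysin typical of tumour stroma, measured 5.08 to 12.2 CPM and 7.29 to 15.1 CPM, and Mmp23 measured 0.970 to 3.28 CPM and 2.01 to 5.40 CPM. Both overlapped.

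The chromosome 9 cluster holds 10 MMP genes within 427.1 kb (chr9:7272514-7699585, GRCm38), 8 of them listed here and 7 tested. Mmp13, the main rodent collagenase, measured 22.5, 60.6 and 23.9 CPM in Ivl:BRAFV600E tumours A, B and C and 224, 24.1 and 61.1 CPM in the tumours with SOX2. Mmp3, the stromelysin that can activate other pro-MMPs, measured 10.6, 53.0 and 22.3 CPM and 153, 31.4 and 55.1 CPM in the same order. For both genes Ivl:BRAFV600E-SOX2LSL tumour A was highest, while tumours B and C lay within or close to the range of the Ivl:BRAFV600E group, and the groups overlapped. The log2 fold change was 1.53 for Mmp13 (SE 0.79, edgeR adjusted p = 0.269) and 1.48 for Mmp3 (SE 0.72, edgeR adjusted p = 0.247). Without tumour A these values were 0.26 and 0.59, and without Ivl:BRAFV600E tumour B they were 2.15 and 2.28.

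Mmp10, a second stromelysin made by migrating keratinocytes, measured 2.56, 9.42 and 3.09 CPM without SOX2 and 49.8, 3.79 and 3.14 CPM with it. Mmp12, the macrophage elastase, measured 1.06, 21.2 and 2.28 CPM without SOX2 and 54.6, 2.43 and 3.43 CPM with it. In both, a single tumour of each genotype stood apart and the other 4 did not exceed 3.79 CPM, so the direction turned without Ivl:BRAFV600E-SOX2LSL tumour A, to a log2 fold change of -0.53 for Mmp10 and -1.47 for Mmp12. Without Ivl:BRAFV600E tumour B the values were 2.75 and 3.61. With all tumours, the values were 1.92 (SE 1.11, edgeR adjusted p = 0.318) and 1.31 (SE 1.44, edgeR adjusted p = 0.60).

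Mmp8, the collagenase stored in neutrophil granules, was the cluster gene whose groups did not overlap. It had 3, 9 and 1 counts in Ivl:BRAFV600E tumours A, B and C and 59, 39 and 41 counts in the tumours with SOX2, or 0.102, 0.416 and 0.0475 CPM against 1.65, 1.26 and 1.48 CPM. Levels were low in all tumours and close to each other among those with SOX2 (log2 fold change 2.96, SE 0.67, edgeR adjusted p = 0.0567). Without Ivl:BRAFV600E tumour B the log2 fold change was 4.16 (edgeR adjusted p = 0.0573). That fit leaves 3 and 1 counts in the group without SOX2, which are not told from 0, so the size of this value is uncertain. Of the neutrophil markers, Ltf, Csf3r and Cxcr2 were also higher without overlap, and Ltf was called (log2 fold change 9.69, edgeR adjusted p = 0.0163). The Ltf call held in 4 of the 6 fits with a tumour left out, over which its log2 fold change ranged from 8.85 to 11.1. S100a8, S100a9, Retnlg and Ngp overlapped, the last at or below 0.361 CPM in every tumour, and the part of neutrophils in the Mmp8 result was not tested. The collagenase gene Mmp1a, typed in the annotation used here as a polymorphic pseudogene, and Mmp27 were at most 0.546 CPM and 0.727 CPM. Both overlapped. With at most 16 counts in a tumour, Mmp1a had a log2 fold change of -1.40, which ranged from -1.97 to -0.42 over the fits with a tumour left out, the latter without Ivl:BRAFV600E tumour A.

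Across the 7 tested cluster genes, Ivl:BRAFV600E-SOX2LSL tumour A was the highest of its group in 7 and Ivl:BRAFV600E tumour B the highest of its group in 5. Over all 36 genes, Ivl:BRAFV600E-SOX2LSL tumour A was highest of its group in 27. The same tumour had the highest macrophage marker sum (666 CPM) and fibroblast marker sum (8293 CPM) and the lowest keratinocyte marker sum (14999 CPM) of all 6. Ivl:BRAFV600E tumour B, in contrast, had the lowest fibroblast sum (761 CPM), a low macrophage sum (76.3 CPM) and the highest keratinocyte sum (137809 CPM). The part of these differences in the cluster's levels was not tested.

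**Figure D3:**
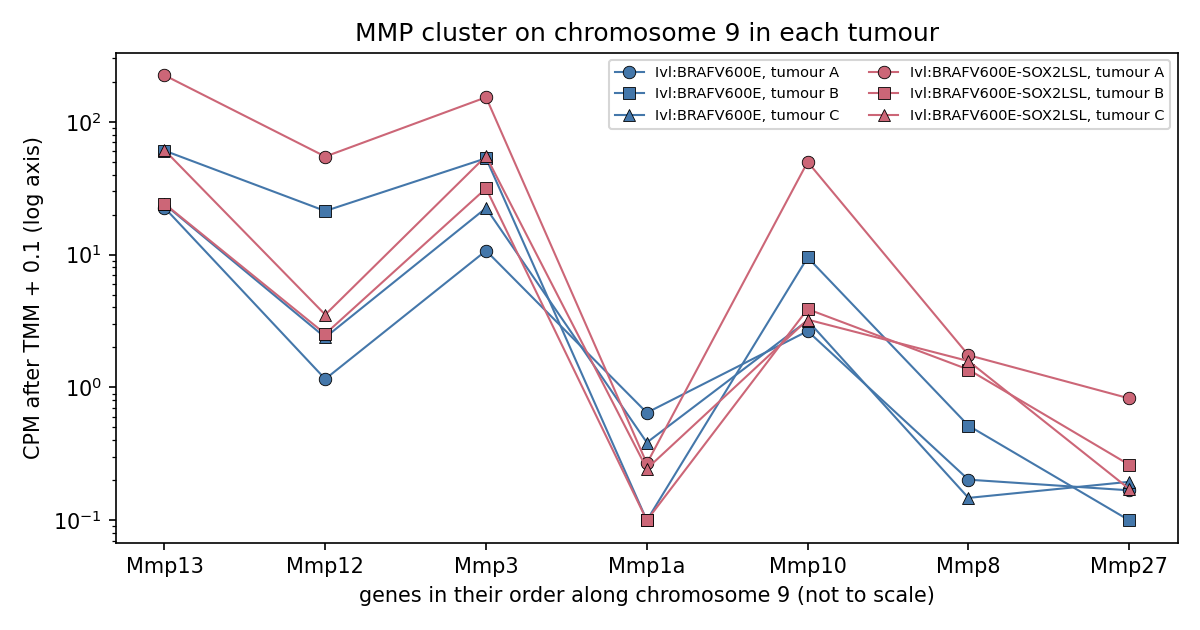
CPM plus 0.1 (log axis) of the 7 tested MMP genes of the chromosome 9 cluster is drawn in gene order, with 1 line per tumour coloured by genotype. Ivl:BRAFV600E-SOX2LSL tumour A runs above the others at Mmp13, Mmp12, Mmp3 and Mmp10, Ivl:BRAFV600E tumour B is next at Mmp12 and Mmp10, and the genotypes separate only at Mmp8.

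Levels of different genes were compared per kilobase of exon. Summed over the MMPs, they were 57.6, 103 and 111 CPM per kb in Ivl:BRAFV600E tumours A, B and C and 398, 121 and 152 CPM per kb in Ivl:BRAFV600E-SOX2LSL tumours A, B and C, without overlap. The cluster supplied 28.2%, 58.8% and 21.2% of that sum in the first group and 51.8%, 24.5% and 37.2% in the second, which overlap. The 10 genes outside the cluster summed to 41.4, 42.5 and 87.9 CPM per kb without SOX2 and to 192, 91.2 and 95.3 CPM per kb with it.

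Among the TIMPs, Timp1, a secreted inhibitor that wounding and inflammation induce, rose. It measured 2.46, 1.52 and 4.75 CPM in Ivl:BRAFV600E tumours A, B and C and 26.0, 14.4 and 10.3 CPM in the tumours with SOX2. The groups did not overlap, and the means differed 5.81-fold (log2 fold change 2.54, SE 0.50, edgeR adjusted p = 0.0434). Of the 6 fits with a tumour left out, only that without Ivl:BRAFV600E-SOX2LSL tumour A kept the call (adjusted p = 0.0396), and the adjusted p ranged up to 0.176 in the others. The log2 fold change stayed between 2.09 and 3.08 in these fits.

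Timp2, the most abundant TIMP per kilobase, measured 85.0, 73.7 and 158 CPM without SOX2 and 123, 121 and 93.7 CPM with it. The groups overlapped (log2 fold change 0.10, SE 0.29, edgeR adjusted p = 0.866), and the sign of this value was negative under upper-quartile scaling, with sex as a covariate and without Ivl:BRAFV600E tumour A or B. Timp3, which binds the matrix and also inhibits ADAM17, measured 32.6, 11.5 and 33.3 CPM and 22.8, 19.2 and 21.3 CPM (log2 fold change -0.29, SE 0.37, edgeR adjusted p = 0.66), and it shares 1733 exonic bases with Syn3. Timp4 did not exceed 0.506 CPM.

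The share of Timp1 among the TIMP transcripts separated the groups, as its level did. Timp1 accounted for 9.66%, 7.79% and 10.7% of summed TIMP levels per kb in Ivl:BRAFV600E tumours and for 45.9%, 32.6% and 30.3% in the tumours with SOX2. The share of Timp2 was 76.2%, 85.8% and 81.1% in the first group and 49.6%, 62.6% and 62.6% in the second. Neither share overlapped between the groups, and as parts of the same sum they are not results apart from the rise of Timp1. The sum itself did, at 28.6, 22.0 and 50.03 CPM per kb against 63.8, 49.7 and 38.4 CPM per kb. The ratio of summed MMP to summed TIMP levels per kb also overlapped, at 2.01, 4.68 and 2.23 against 6.24, 2.43 and 3.95. These sums over chosen genes are given as a description, without a test.

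Plau had the smallest adjusted p of the listed genes. It encodes urokinase, the plasminogen activator that migrating keratinocytes use at the cell surface. It measured 40.7, 38.3 and 50.6 CPM in Ivl:BRAFV600E tumours A, B and C and 98.4, 87.0 and 86.1 CPM in the tumours with SOX2. Tumours of 1 genotype lay close together, and the means differed 2.09-fold (43.2 ± 6.51 against 90.5 ± 6.86 CPM, SD, n = 3 each, log2 fold change 1.07, SE 0.15, edgeR adjusted p = 0.0206). The call held in 3 of 6 fits with a tumour left out and was lost without Ivl:BRAFV600E tumour A (adjusted p = 0.121), Ivl:BRAFV600E tumour B (0.0861) or Ivl:BRAFV600E-SOX2LSL tumour B (0.0568). In these fits the log2 fold change lay between 0.99 and 1.20.

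Plaur, the receptor that holds urokinase on the cell, measured 3.72, 13.9 and 4.85 CPM without SOX2 and 42.9, 15.4 and 12.5 CPM with it. Ivl:BRAFV600E tumour B exceeded the lowest tumour with SOX2, so the groups overlapped (log2 fold change 1.66, SE 0.64, edgeR adjusted p = 0.164). This value was 2.46 without Ivl:BRAFV600E tumour B and 0.90 without Ivl:BRAFV600E-SOX2LSL tumour A. Plat, tissue plasminogen activator, measured 9.17, 6.70 and 7.32 CPM and 29.0, 12.5 and 16.6 CPM without overlap (log2 fold change 1.32, SE 0.32, edgeR adjusted p = 0.067).

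The serpins had log2 fold changes of opposite sign. Serpine2, protease nexin, an inhibitor of thrombin and of plasminogen activators, measured 18.2, 7.25 and 18.9 CPM without SOX2 and 69.1, 48.6 and 28.4 CPM with it. The groups did not overlap (log2 fold change 1.72, SE 0.44, edgeR adjusted p = 0.0727). Serpinb2, a urokinase inhibitor that keratinocytes express as they differentiate, had the highest mean level per kb of the listed genes, at 102 CPM per kb without SOX2 and 65.9 CPM per kb with it. In CPM it stood at 269, 279 and 173 in Ivl:BRAFV600E tumours A, B and C and at 92.5, 263 and 109 in the others. Ivl:BRAFV600E-SOX2LSL tumour B lay within the range of the Ivl:BRAFV600E tumours, and the groups overlapped (log2 fold change -0.64, SE 0.41, edgeR adjusted p = 0.364). Without that tumour the log2 fold change was -1.26 (adjusted p = 0.073).

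**Figure D4:**
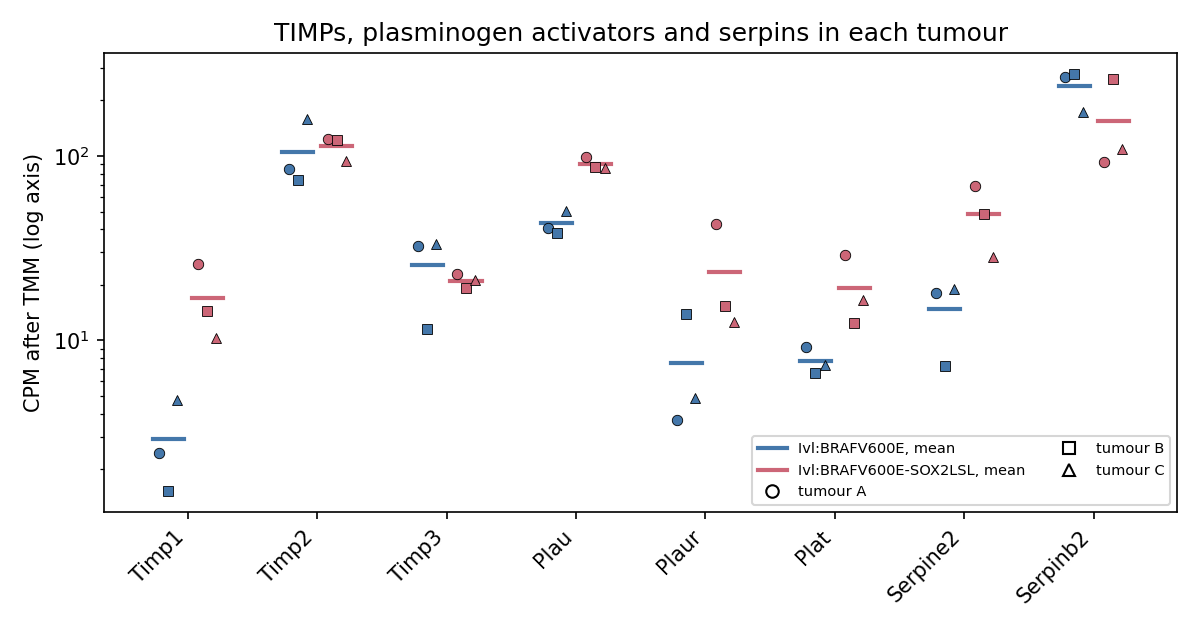
CPM after TMM scaling (log axis) is shown for 3 TIMPs, the plasminogen activator genes and 2 serpins in each tumour, with points for tumours A, B and C and a line for the group mean. Timp1, Plau, Plat and Serpine2 separate by genotype, and Timp2, Timp3, Plaur and Serpinb2 overlap.

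In the ADAM family, 3 of 5 genes were higher without overlap, beside 18.2% of all tested genes, and none passed the test. Adam8, found on leukocytes and tumour cells, measured 20.4, 28.0 and 22.6 CPM without SOX2 and 34.3, 42.5 and 48.0 CPM with it (log2 fold change 0.81, SE 0.18, edgeR adjusted p = 0.0567). Unlike most of the listed genes it was lowest, within the group with SOX2, in tumour A, and without that tumour the adjusted p was 0.0217. Adam12, linked to activated fibroblasts and to muscle development, measured 14.0, 8.27 and 16.1 CPM without SOX2 and 114, 16.8 and 44.4 CPM with it (log2 fold change 2.19, SE 0.65, edgeR adjusted p = 0.0989). Its values spread widely among the tumours with SOX2, with tumour B just above the other genotype, and without tumour A the log2 fold change was 1.25. The skeletal muscle marker sum was 908, 1060 and 224 CPM in Ivl:BRAFV600E-SOX2LSL tumours A, B and C, an order unlike that of Adam12. It was 2.03 to 5.27 CPM in the Ivl:BRAFV600E tumours. The part of this difference in Adam12 was not tested.

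Adam17, the sheddase of TNF and of EGF receptor ligands, measured 85.0, 71.2 and 88.3 CPM without SOX2 and 114, 107 and 102 CPM with it. This was a small and even difference (log2 fold change 0.40, SE 0.13, edgeR adjusted p = 0.118). Adam10, the related sheddase of Notch receptors and cadherins, measured 132, 151 and 134 CPM and 162, 170 and 135 CPM, which overlap (log2 fold change 0.16, SE 0.14, edgeR adjusted p = 0.490). Adam19 measured 7.81, 7.30 and 9.31 CPM and 39.0, 9.07 and 18.9 CPM, and it overlapped through Ivl:BRAFV600E-SOX2LSL tumour B alone (log2 fold change 1.46, SE 0.48, edgeR adjusted p = 0.121), with a log2 fold change of 0.78 without tumour A of that group.

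Of the 5 ADAMTS genes, 4 were higher without overlap, beside the same 18.2%, and none passed the test. The aggrecanase gene Adamts4 measured 4.60, 4.67 and 4.85 CPM without SOX2, almost the same in each tumour, and 35.4, 12.5 and 10.6 CPM with it (log2 fold change 2.05, SE 0.46, edgeR adjusted p = 0.0567). Without Ivl:BRAFV600E-SOX2LSL tumour A its log2 fold change was 1.29 and its adjusted p 0.0119. The other aggrecanase gene Adamts5 measured 16.4, 5.96 and 10.7 CPM and 52.9, 28.3 and 29.3 CPM (log2 fold change 1.74, SE 0.41, edgeR adjusted p = 0.0604). All tumours with SOX2 were above all others for both genes.

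Adamts2, which trims the amino-terminal propeptide from fibrillar procollagens, measured 52.9, 38.5 and 75.0 CPM without SOX2 and 136, 82.5 and 84.2 CPM with it (log2 fold change 0.86, SE 0.29, edgeR adjusted p = 0.128). Adamts9, a versican-cleaving protease, measured 7.84, 6.98 and 9.69 CPM and 17.8, 12.4 and 10.6 CPM (log2 fold change 0.74, SE 0.24, edgeR adjusted p = 0.122). For both, the gap between the groups was narrow. Adamts1, also a versican-cleaving protease, measured 93.6, 101 and 73.2 CPM without SOX2 and 82.5, 76.7 and 61.3 CPM with it, and the groups overlapped (log2 fold change -0.28, SE 0.17, edgeR adjusted p = 0.345).

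**Figure D5:**
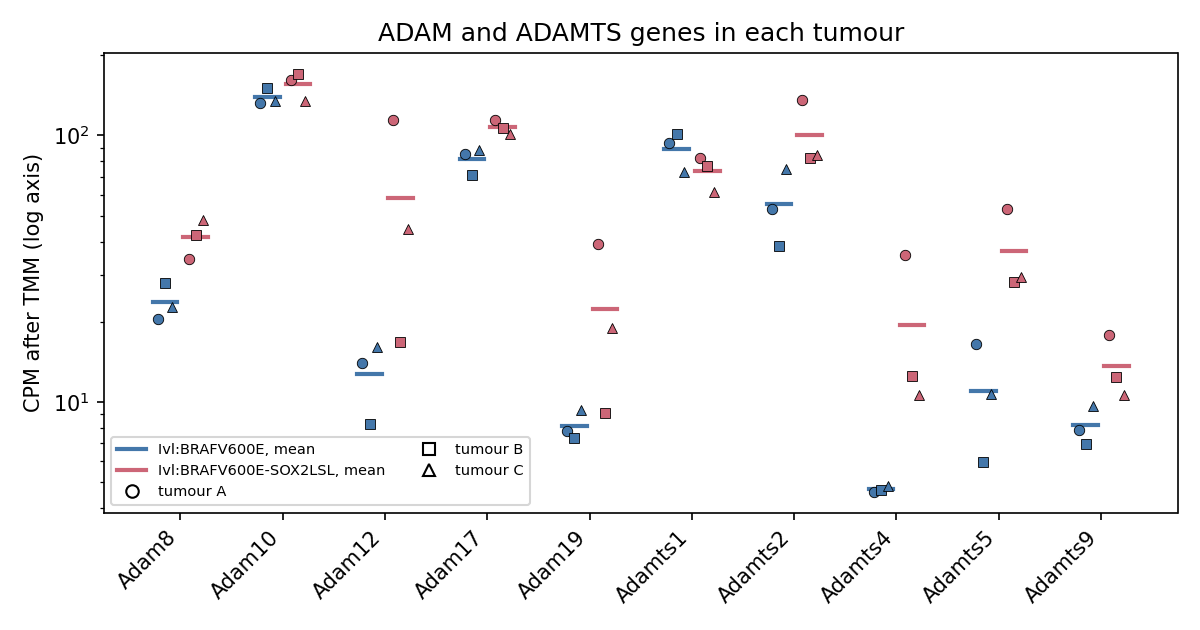
CPM after TMM scaling (log axis) is shown for the 5 ADAM and 5 ADAMTS genes in each tumour, with points for tumours A, B and C and a line for the group mean. Adam8, Adam12, Adam17, Adamts2, Adamts4, Adamts5 and Adamts9 separate by genotype, and Adam10, Adam19 and Adamts1 overlap.

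Ranked by mean level per kb over all tumours, the 10 highest listed genes were Serpinb2, Mmp2, Mmp3, Adam10, Plau, Timp2, Mmp13, Mmp14, Mmp9 and Adamts1. The order differed by genotype. Mmp9 was among them largely through Ivl:BRAFV600E-SOX2LSL tumour A, at 81.0 CPM per kb against 8.26 and 16.3 CPM per kb in tumours B and C. Its group means were 35.2 CPM per kb with SOX2 and 4.73 CPM per kb without SOX2. In the latter group Adam17 (11.4), Adamts2 (5.94) and Adam8 (5.11 CPM per kb) stood above Mmp9. With SOX2, Timp1 and Adam17 (19.0 and 15.02 CPM per kb) stood above Adamts1 (13.9 CPM per kb). No differences between neighbours in this order were tested. Plau went from 18.3 to 38.2 CPM per kb, and Timp1 from 3.28 to 19.0 CPM per kb.

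A further list of 65 genes covered other extracellular proteolysis. It holds further MMP, ADAM, ADAMTS and ADAMTS-like genes, cathepsins and cystatins, epidermal, neutrophil and mast cell proteases, and further inhibitors. Of its 60 tested genes, 1 was called higher and 1 lower (all tested genes, 2.39% and 1.51%), a share near the background. A further count, of genes without overlap, gave 20 higher and 12 lower (all tested genes, 18.2% and 16.0%). The 20 include Adamts19 and Prtn3, which had 0 counts in every Ivl:BRAFV600E tumour and passed the filter on low counts through the tumours with SOX2 alone, and 18 without them. The median log2 fold change was 0.62, or 0.56 with genes at the counting floor set to their bound, beside 0.04 over all tested genes. Adamtsl4, an ADAMTS-like matrix protein without protease activity that binds fibrillin, rose from 2.76, 5.64 and 4.80 CPM to 33.2, 14.0 and 20.4 CPM (log2 fold change 2.36, SE 0.39, edgeR adjusted p = 0.029). Prss8, the membrane serine protease prostasin of the epidermal barrier, fell from 60.0, 59.2 and 51.6 CPM to 23.5, 31.9 and 30.2 CPM (log2 fold change -0.998, SE 0.15, edgeR adjusted p = 0.027). For both, no tumour of 1 genotype reached the levels of the other. With a tumour left out the log2 fold change stayed between 1.97 and 2.61 for Adamtsl4 and between -1.09 and -0.88 for Prss8. The count of called genes in this list was then 0 without Ivl:BRAFV600E tumour A, Ivl:BRAFV600E tumour C or Ivl:BRAFV600E-SOX2LSL tumour C, 1 without Ivl:BRAFV600E tumour B or Ivl:BRAFV600E-SOX2LSL tumour B, and 6 without Ivl:BRAFV600E-SOX2LSL tumour A.

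Mast cell proteases stand in this list and also served as markers. Carboxypeptidase A3 (Cpa3) measured 1.02, 0.0462 and 0.380 CPM in Ivl:BRAFV600E tumours A, B and C and 4.84, 4.44 and 4.04 CPM in the tumours with SOX2 (log2 fold change 3.14, edgeR adjusted p = 0.0623). It had 1 count in Ivl:BRAFV600E tumour B, and the log2 fold change ranged from 2.63 to 4.36 in the fits with a tumour left out. Mcpt4, Tpsb2 and Cma1 showed the same separation at adjusted p of 0.0877 to 0.101. Kit, the mast cell growth factor receptor, overlapped at 5.12 to 10.1 CPM.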

How the data were processed

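Reads (150 bp) came from 200 ng of RNA per tumour. Per the labels and the study's methods, the authors trimmed them with Trim Galore, aligned them to GRCm38 with HISAT2 2.1.0, counted them per gene with featureCounts (Subread 1.6.3) and deposited raw counts without normalisation. Of 7 columns, 1 could not be matched to a listed mouse and was not used, and the other 6 were assigned by the mouse name and the study's mouse list, 3 per genotype. Gene symbols, positions and exon lengths came from GENCODE M21 (GRCm38), and 13 of the 37 genes share exonic bases with another gene.

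Tested genes had 5 or more reads in 1 or more tumours, library sizes were scaled by TMM (factors 0.824 to 1.26), and genotypes were compared with the edgeR 4.0.16 quasi-likelihood test (R 4.3.3, limma 3.58.1) with Benjamini-Hochberg adjustment over all 24433 genes at 0.05. CPM are counts scaled to the library total after TMM. A gene at 3 counts or fewer was taken as not told from 0. The scripts were tested on simulated data. Alternatives were DESeq2 1.42.0, limma voom with sample weights, other scalings and filters, sex as a covariate and each tumour left out. Leaving out the 10 genes with the most counts was chosen after seeing the data. Python 3.11.15 with pandas 2.3.3 and with matplotlib 3.10.9 served for tabulation and plotting.

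The listed genes, the other proteolysis genes and the markers were chosen with earlier results of these data known. Levels in every tumour are given for each listed gene past the test, each without overlap between groups and the 10 with the highest mean level per kb. From the other proteolysis list, genes past the test are named. Mmp10, Mmp12, Plaur, Timp3, Adam19, 1700020L24Rik and Tmem198b were added after their values were seen. RefSeq promoters were matched by symbol for 27 of the 37 genes.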

Additional observations from a re-analysis of the deposited data

How the results depend on the processing

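The main test called 954 genes, 3 of the listed genes higher and 0 lower, and 2 of the other proteolysis genes. These counts were 3653, 15 and 20 with DESeq2, 2142, 8 and 14 with limma voom, 1759, 10 and 8 without a filter on low counts, and 1296, 5 and 4 with filterByExpr. Upper-quartile scaling gave 4 other proteolysis genes. With sex as a covariate, 228 genes and 0 other proteolysis genes were called. Leaving out 1 tumour at a time gave 22 to 1575 genes, 0 to 5 listed genes and 0 to 6 other proteolysis genes. The number of listed genes called lower was 0 under every alternative run, and removing the 10 genes with the most counts left 951 genes called. The sign of the log2 fold change turned for Timp2 (-0.01 under upper-quartile scaling, -0.07 with sex as a covariate, -0.04 and -0.11 without Ivl:BRAFV600E tumours A and B) and, without Ivl:BRAFV600E-SOX2LSL tumour A, for Mmp10 (-0.53) and Mmp12 (-1.47). Over the fits with 1 tumour left out, Timp2 reached up to 0.51, Mmp10 up to 2.75 and Mmp12 up to 3.61. The cause of these changes was not tested. The other listed genes kept their direction under the alternatives that gave them an adjusted p. None was given by filterByExpr for Mmp1a, Mmp27 and Timp4, or by DESeq2 for Timp4, Mmp10 and Mmp12. No paired analysis was possible because the columns carry no replicate numbers. The number of tumours limits the test, and a gene that misses the threshold is not shown to be alike in both genotypes. Counting error limits Mmp1a, Mmp8, Mmp27 and Timp4.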
